A study of Mus musculus with 15 samples.

Results

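The fetal mouse stomach between E12.5 and E17.5 was compared in 6 transcriptomes of a series of 15, with 3 early fetal libraries (E12.5, E13.5 and E14.5) set against 3 late fetal libraries (E15.5, E16.5 and E17.5). The libraries were assigned by their labelled timepoint and by nothing measured in them. All 6 came from whole stomachs of C57BL/6 mice, for which no treatment or engineered allele is named, with 1 library per timepoint, so that the timepoints served as the replicates of each group and the spread within a group includes 2 days of development. The study reports more embryo stomachs per replicate at the early timepoints than at the late ones, without naming the RNA libraries. If this held for them, pool size and group cannot be told apart. RNA-Seq values were given as FPKM (fragments scaled to transcript length and to the total of mapped fragments), which compare genes per length, and were analysed as log2(FPKM + 1). A library held 14114 to 14538 symbols at 1 FPKM or more. The total count of fragments is not among the values used here, and the deposited confidence bounds cover counting error only.

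The stomach wall forms in this window from a tube of endoderm wrapped in mesenchyme. In the mouse, the endoderm gives rise to a stratified squamous epithelium in the forestomach and to a columnar, gland-forming epithelium in the corpus and antrum, while the mesenchyme gives rise to smooth muscle, connective tissue and the serosal covering, and neural crest cells colonise the wall as the enteric nervous system. Exchange of Hedgehog, Wnt, BMP, FGF and retinoic acid signals between epithelium and mesenchyme is known to pattern the organ. In whole-organ RNA, fewer cells of a type and less RNA per cell cannot be told apart.

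Of 15832 symbols whose highest FPKM in the 6 libraries was at least 1, every late value lay above every early value for 3341 (21.1%) and below every early value for 4774 (30.2%). The difference of the group means, late minus early on the log2(FPKM + 1) scale, exceeded 2 for 254 of the former and lay under -2 for 10 of the latter. The comparison of group means with limma called 0 symbols higher (0%) and 0 lower (0%) at a Benjamini-Hochberg adjusted p of 0.05. The smallest adjusted p was 0.056, 2550 symbols lay under 0.06, and at an unadjusted p of 0.05 the test passed 2848 higher and 3759 lower symbols. Without the E15.5 library, the same test called 2540 symbols higher and 3538 lower. As a description, for 2072 symbols of the higher class that differed by at least 0.5 between the early mean and the mean of E16.5 and E17.5, the value at E15.5 lay at a median of 51.0% of the way, and for 2197 symbols of the lower class at 44.7%. That E15.5 lay beyond the early values was fixed by the choice of these classes, and its median place differed between lists, with 22.6% in the mucosal defence list (6 genes) and 79.8% in the smooth muscle list (17 genes).

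A linear trend over embryonic day, fitted with limma to the same 6 libraries, takes the order of the timepoints into account. At an adjusted p of 0.05 it called 3208 symbols rising (20.3%) and 4898 falling (30.9%), and 2711 of the 3341 higher and 3974 of the 4774 lower symbols were among them. In what follows, rose and fell are used for genes that passed this trend test, and each count of a gene list is to be read against these shares and against the median difference of all tested symbols, which was -0.08. The split depended on the scaling: with median-ratio scaling 4087 symbols rose and 3590 fell, and with a fixed sum that leaves out mitochondrial genes and the 10 highest genes 2516 rose and 6361 fell. The median difference was 0.01 under the former and -0.19 under the latter, so small differences in either direction are relative to the scaling. Of 591 called members of the gene lists below, 558 kept their call under median-ratio scaling, 547 under quantile normalization and 542 under the fixed sum. List counts with 1 library left out are to be read against all symbols in the same fit. Without E17.5, 2627 of 15587 symbols rose and 3082 fell, and without E12.5, 2559 of 15675 rose and 3780 fell.

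Among genes that rose, the largest differences were those of genes of the squamous epithelium, which in the mouse stomach lines the forestomach. Krt13, the keratin of the suprabasal layers of non-keratinised squamous epithelia (chromosome 11, 100117596 to 100121495, GRCm38), measured 7.47, 13.8 and 76.8 FPKM at E12.5, E13.5 and E14.5, and 1016, 3976 and 5133 FPKM at E15.5, E16.5 and E17.5. The early libraries averaged 32.7 ± 38.3 FPKM and the late libraries 3375 ± 2123 FPKM (SD, n = 3 each). The groups did not overlap, the difference on the log2 scale was 7.01 ± 0.97 (SE), and the slope of 2.12 ± 0.19 per day had an adjusted p of 0.000664 in the trend test of limma. Counting error was small beside this: the deposited bounds ran from 6.30 to 8.63 FPKM at E12.5.

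**Figure D1:**
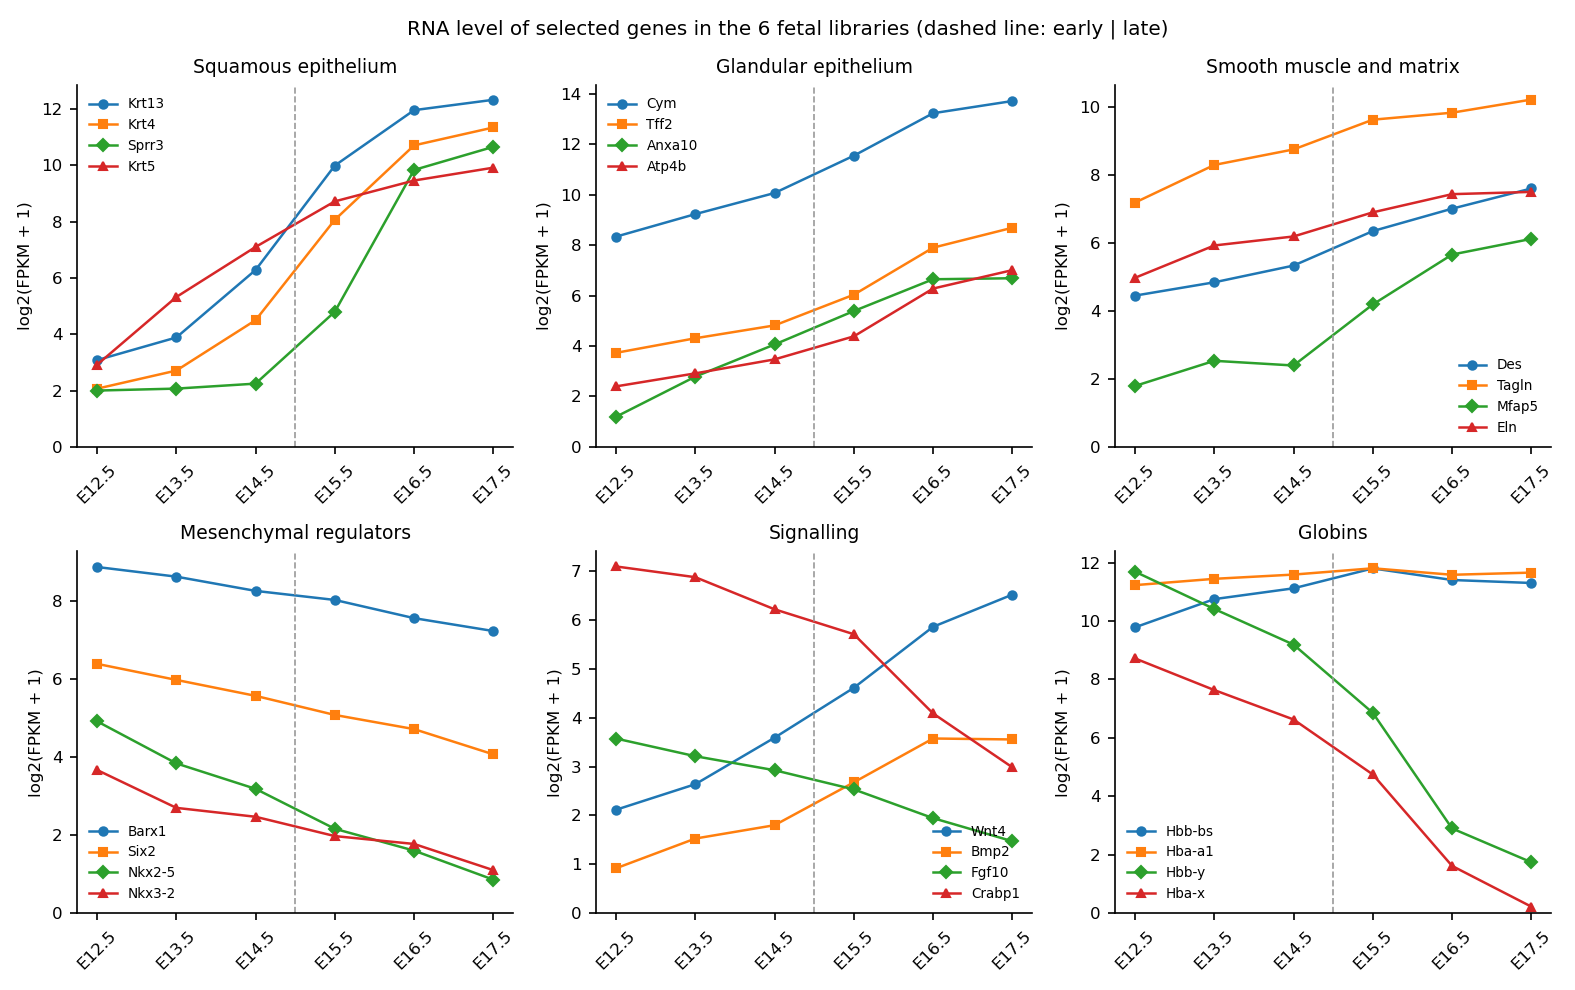
RNA level on the log2(FPKM + 1) scale (vertical axis) of 4 genes per panel in the 6 fetal libraries (horizontal axis), with 1 point per library and a dashed line between the early and the late libraries. Squamous, glandular and muscle genes climbed over the series, mesenchymal regulators, Crabp1 and the embryonic globins Hbb-y and Hba-x declined, and Hba-a1 stayed between 2398 and 3576 FPKM.

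Its partner Krt4, the type II keratin that pairs with it, had 3.19, 5.54 and 21.6 FPKM in the early and 267, 1671 and 2595 FPKM in the late libraries, a difference of 6.95 ± 0.99. Sprr3, a small proline-rich protein of the cornified envelope, the crosslinked shell of the outermost cells, stood at 3.00, 3.20 and 3.74 FPKM up to E14.5, at 26.8 FPKM at E15.5 and at 912 and 1611 FPKM thereafter. Cnfn (cornifelin) went from between 2.25 and 3.15 FPKM to 26.9, 1038 and 2168 FPKM, and Krtdap, a keratinocyte secreted protein, from between 8.05 and 11.9 FPKM to 77.8, 1092 and 3311 FPKM. In these 3 genes E15.5 was the lowest of the late libraries by a wide margin, yet above all early ones.

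Of 25 tested members of the suprabasal and cornified list, 22 rose, 0 fell and 3 did not pass (Lor, Flg and Klk5), with a median difference of 2.87. Of the 22 rises, 17 were left without E13.5 and 15 without E17.5. Over all symbols, 2610 of 15762 rose without E13.5 and 2627 of 15587 without E17.5. Every late value lay above every early value in 19. The other rising symbols with the largest differences were Ly6d (6.45), a surface protein of stratified epithelia, Dmkn (6.29), Sprr1a (5.88), Krt6a (5.74), Asprv1 (5.53), Fam25c (5.07) and Crct1 (5.02). Crct1 did not pass the trend test without E16.5 or without E17.5 (adjusted p up to 0.129). These 12 symbols were taken as the largest positive differences among genes that rose and did not overlap, after the comparison of group means had called none. Krt6a, a keratin of activated keratinocytes, had its highest value at E16.5, with 97.2, 315 and 117 FPKM in the late libraries and 31.2 FPKM at E18.5.

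The basal layer rose earlier. Krt5, the type II keratin of basal cells, had 6.56, 39.0 and 136 FPKM in the early and 420, 703 and 964 FPKM in the late libraries, a difference of 4.25 ± 1.01. Its partner Krt14 had 2.85, 2.14 and 3.13 FPKM and then 17.8, 47.3 and 79.2 FPKM, so that the basal keratins did not share their timing. Trp63, the transcription factor that specifies stratified epithelia, went from 2.89, 7.09 and 11.96 to 16.6, 21.1 and 22.1 FPKM. All 17 tested members of the basal list rose and had no overlap between the groups, with a median difference of 1.80. Among them were the desmosomal genes Pkp1 (3.86) and Dsg3 (3.84) and the hemidesmosomal genes Col17a1 (2.15) and Itgb4 (1.80). In 10 of the 17 the largest change from 1 day to the next fell between E12.5 and E13.5, whereas 12 of the 25 suprabasal and cornified genes had it between E15.5 and E16.5 and 7 between E16.5 and E17.5. Among all rising symbols the shares in these intervals were 18.3%, 43.3% and 13.25%, in the same order, so the 12 of 25 was near the general share.

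Promoter sequences of 4 suprabasal genes are given because a TATA sequence close to the start was frequent in this list. Within 45 to 16 bases before the annotated start, on the strand of the gene, TATAAA or TATATA stood in 9 of the 18 members with a RefSeq promoter entry (50%), against 257 of 10791 tested symbols with an entry (2.38%). The 120 bases before the start are printed 5′ to 3′ on the strand of the gene, with the match in capitals, from the RefSeq table of build GRCm38.p6. The positions are chr7:30787785-30787904 on the plus strand for Krtdap, chr3:92485882-92486001 on the minus strand for Sprr1a, chr3:92458721-92458840 on the minus strand for Sprr3 and chr2:130012220-130012339 on the plus strand for Tgm3, the epidermal transglutaminase, whose difference was 3.78.
Krtdap: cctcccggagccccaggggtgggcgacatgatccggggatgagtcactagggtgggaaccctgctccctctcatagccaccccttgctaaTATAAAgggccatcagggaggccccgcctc
Sprr1a: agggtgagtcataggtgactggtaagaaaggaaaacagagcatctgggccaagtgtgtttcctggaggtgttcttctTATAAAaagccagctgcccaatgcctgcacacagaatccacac
Sprr3: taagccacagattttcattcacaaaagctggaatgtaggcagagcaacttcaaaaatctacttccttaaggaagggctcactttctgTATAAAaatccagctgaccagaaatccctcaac
Tgm3: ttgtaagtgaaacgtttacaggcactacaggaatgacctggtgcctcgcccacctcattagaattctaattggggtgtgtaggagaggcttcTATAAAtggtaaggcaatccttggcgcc
All 4 hold TATAAA, which begins 30, 43, 33 and 28 bases before the start in this order. Of the 6 basal members with an entry, 0 held either sequence in that window. A match was not particular to the suprabasal list. It stood in 4 of 10 surface mucous and 3 of 4 zymogen and lipase genes with an entry. Among smooth muscle, mitotic and DNA replication genes with an entry it stood in 0 of 19, 0 of 20 and 0 of 21. Among all symbols the share was 4.44% of 2228 rising and 1.19% of 3516 falling ones. A match describes these letters only.

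The glandular epithelium gained its secretory genes in the same days. Cym, the prochymosin that clots milk, had 323, 600 and 1073 FPKM in the early and 2993, 9621 and 13454 FPKM in the late libraries, a difference of 3.62 ± 0.66. Pga5, a pepsinogen, stayed between 45.8 and 55.1 FPKM up to E14.5 and measured 72.7, 355 and 2183 FPKM in the late libraries (2.94 ± 1.13), so that most of its rise lay in the last day. Ctse, the gastric aspartic protease cathepsin E, went from 4.10, 8.35 and 15.7 to 39.0, 127 and 143 FPKM. Of 7 tested zymogen and lipase genes 6 rose, with a median difference of 1.97. Lipf, the gastric lipase, was listed at 0 in all 6 libraries and was not tested.

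Chia1, an acidic chitinase that is abundant in the adult stomach, did not pass the trend test and lay between 6.47 and 7.43 FPKM in every library. That level was 0.0694% to 0.0798% of its highest value, reached at W8. Of 7 genes with at least 2000 FPKM in a library from W3 to W8 and less than 1% of their highest value in all 6 fetal libraries, 6 stood at 0.0705% to 0.113% of it at E12.5 (Chia1, Clps, Gkn1, Gkn2, Pgc and Pla2g1b). Pgc, Gkn1, Gkn2 and Clps rose from that level, Pgc from 137 to 414 FPKM over the 6 libraries. The source of this shared low level was not tested.

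The listed genes of surface mucous cells rose. Anxa10, an annexin of the gastric surface epithelium, had 1.29, 5.90 and 15.7 FPKM and then 40.8, 99.2 and 102 FPKM, a difference of 3.56 ± 0.75. Tff2, the trefoil peptide of mucous neck cells, had 12.3, 18.8 and 27.2 FPKM and then 64.6, 238 and 412 FPKM (3.26 ± 0.68). Tff1, its counterpart in surface cells, climbed from 153 to 2382 FPKM. Psca, a surface antigen of gastric and squamous cells, was flat at 14.4, 13.2 and 12.53 FPKM up to E14.5, stood at 32.0 FPKM at E15.5 and at 699 and 760 FPKM thereafter, and its trend was not past the threshold without E17.5 (adjusted p 0.0668).

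All 18 tested members of the surface mucous list rose, with a median difference of 1.88 and a range from 0.60 (Gkn1) to 4.18 (Psca). In 12 of them the largest daily change fell between E15.5 and E16.5, as it did in 43.3% of all rising symbols. The parietal cell list, the genes of acid secretion, had the same timing, with 12 of 15 in that interval, and 11 of its 15 members rose. Atp4b, the beta subunit of the gastric proton pump, had 4.28, 6.54 and 10.1 FPKM in the early and 19.9, 76.7 and 128 FPKM in the late libraries (2.96 ± 0.68). The catalytic subunit Atp4a started later, with 4.34, 4.29 and 4.72 FPKM and then 6.55, 33.3 and 83.0 FPKM, and was not past the threshold without E17.5 (adjusted p 0.0618). Of the receptors that regulate acid secretion, Cckbr (0.21) and Chrm3 (0.03) did not pass.

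**Figure D2:**
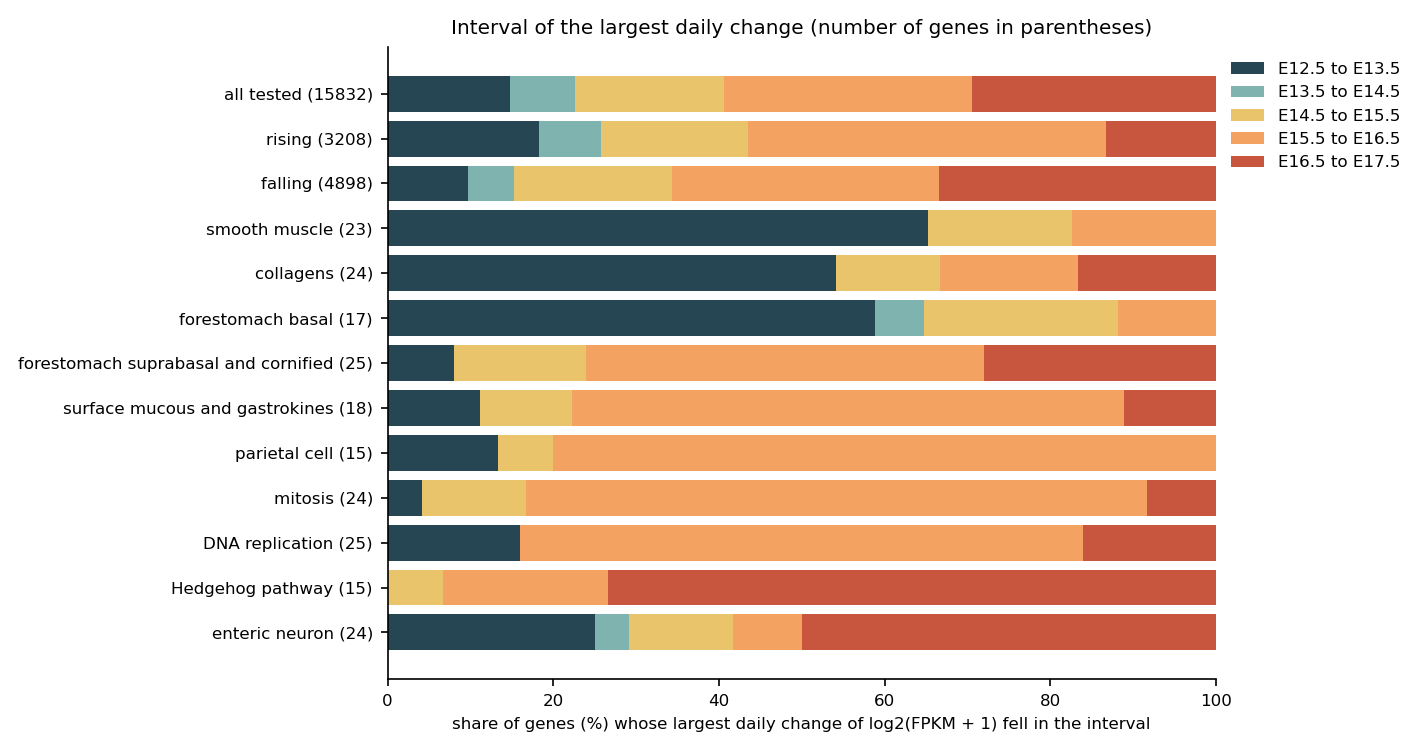
Share of genes (horizontal axis, percent) whose largest change of log2(FPKM + 1) from 1 day to the next fell in each of the 5 daily intervals (colours), for all tested symbols, those that rose or fell, and 10 gene lists (rows, number of genes in parentheses). Smooth muscle, collagen and basal squamous genes had their largest change mostly between E12.5 and E13.5 (15 of 23, 13 of 24 and 10 of 17), surface mucous, parietal and mitotic genes between E15.5 and E16.5 (12 of 18, 12 of 15 and 18 of 24), and Hedgehog genes between E16.5 and E17.5 (11 of 15). Among all tested symbols the shares in these intervals, in the same order, were 14.8%, 29.9% and 29.4%.

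Endocrine genes were divided. The hormone genes Ghrl (ghrelin, 4.16, 7.25 and 8.06 and then 9.97, 19.4 and 50.6 FPKM) and Gast (gastrin, 1.501, 2.84 and 5.43 and then 9.81, 10.4 and 9.97 FPKM) rose by 1.63 ± 0.56 and 1.48 ± 0.32. Gastrin reached its fetal level at E15.5 and ghrelin was still climbing at E17.5. Among the regulators of the endocrine lineage, Insm1 (-0.72), Isl1 (-0.98) and Rfx6 (-0.82) fell. Isl1 is also expressed in the gastric mesenchyme, and the fall of Insm1 was not past the threshold without E17.5 (adjusted p 0.055). Of the 17 tested endocrine genes, 7 rose, 3 fell and 7 did not pass, and without E15.5 5 fell.

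Transcription factors of the endoderm were mostly among the risers, with 12 of 20 rising, 2 falling and a median difference of 0.46. Foxq1, a forkhead factor needed for surface mucous cells to make mucin, had 11.98, 27.9 and 39.2 FPKM and then 55.4, 104 and 105 FPKM (1.79 ± 0.46). Bhlha15, the factor of zymogenic cell maturation, had 0.18, 0.30 and 0.45 FPKM and then 1.79, 3.82 and 5.59 FPKM (1.77 ± 0.31). Klf4 (1.62), Elf3 (1.61), Spdef (1.22) and Foxa3 (1.21), which act in epithelial differentiation, also rose without overlap. The factors that specify the stomach region differed little: Gata4 (0.05) and Pdx1 (-0.11) did not pass, and Sox2 (0.19) rose but not under quantile normalization, under the fixed sum or without E12.5, E14.5, E16.5 or E17.5 (adjusted p up to 0.238). Foxa2 (-0.65) and the intestinal factor Cdx2 (-0.63) fell, Cdx2 from 1.26, 1.60 and 0.76 to 0.74, 0.43 and 0.11 FPKM, and the fall of Foxa2 was not past the threshold without E13.5 or E17.5 (adjusted p up to 0.08).

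The mesenchymal factors went the other way, with 17 of 24 falling, 3 rising and a median difference of -0.68. Barx1, the mesenchymal homeobox factor that specifies stomach against intestine, fell at every step, with 472, 397 and 308 FPKM and then 262, 189 and 150 FPKM (-0.98 ± 0.25). Nkx2-5, a homeobox factor of the pyloric sphincter and of the spleen anlage, had 29.3, 13.3 and 8.11 FPKM and then 3.48, 2.04 and 0.81 FPKM (-2.44 ± 0.51). Six2, another pyloric factor, fell from 83.3 to 15.8 FPKM, and Nkx3-2, a regulator of stomach shape, from 11.8 to 1.15 FPKM. The 3 that rose were Pitx1 (0.47), Gata5 (0.39) and Tbx2 (0.30), and of these Gata5 and Tbx2 were not past the threshold under the fixed sum or without any of E13.5, E16.5 and E17.5, nor was Gata5 without E12.5 or Tbx2 without E14.5 (adjusted p up to 0.107 and 0.187).

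Hox genes, which give the mesenchyme its position along the gut, fell in 16 of 21 cases, with a median difference of -0.77. Hoxa4 had 24.1, 19.3 and 13.9 FPKM and then 9.34, 6.51 and 5.99 FPKM (-1.27 ± 0.24), and Hoxb3, Hoxb4, Hoxa5 and 12 others moved with it in sign. The 3 that rose were genes of the HoxC cluster. Hoxc8 rose from 0.135, 0.323 and 0.992 to 2.09, 5.72 and 12 FPKM (2.17 ± 0.52) and Hoxc6 from 1.87, 3.94 and 4.78 to 5.94, 8.78 and 9.98 FPKM (1.06 ± 0.30), while Hoxc4 (-0.16) and Hoxd8 (0.06) did not pass. Hoxc5 (0.29) also rose, but not under the fixed sum, without E13.5 or without E17.5 (adjusted p up to 0.0988).

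**Figure D3:**
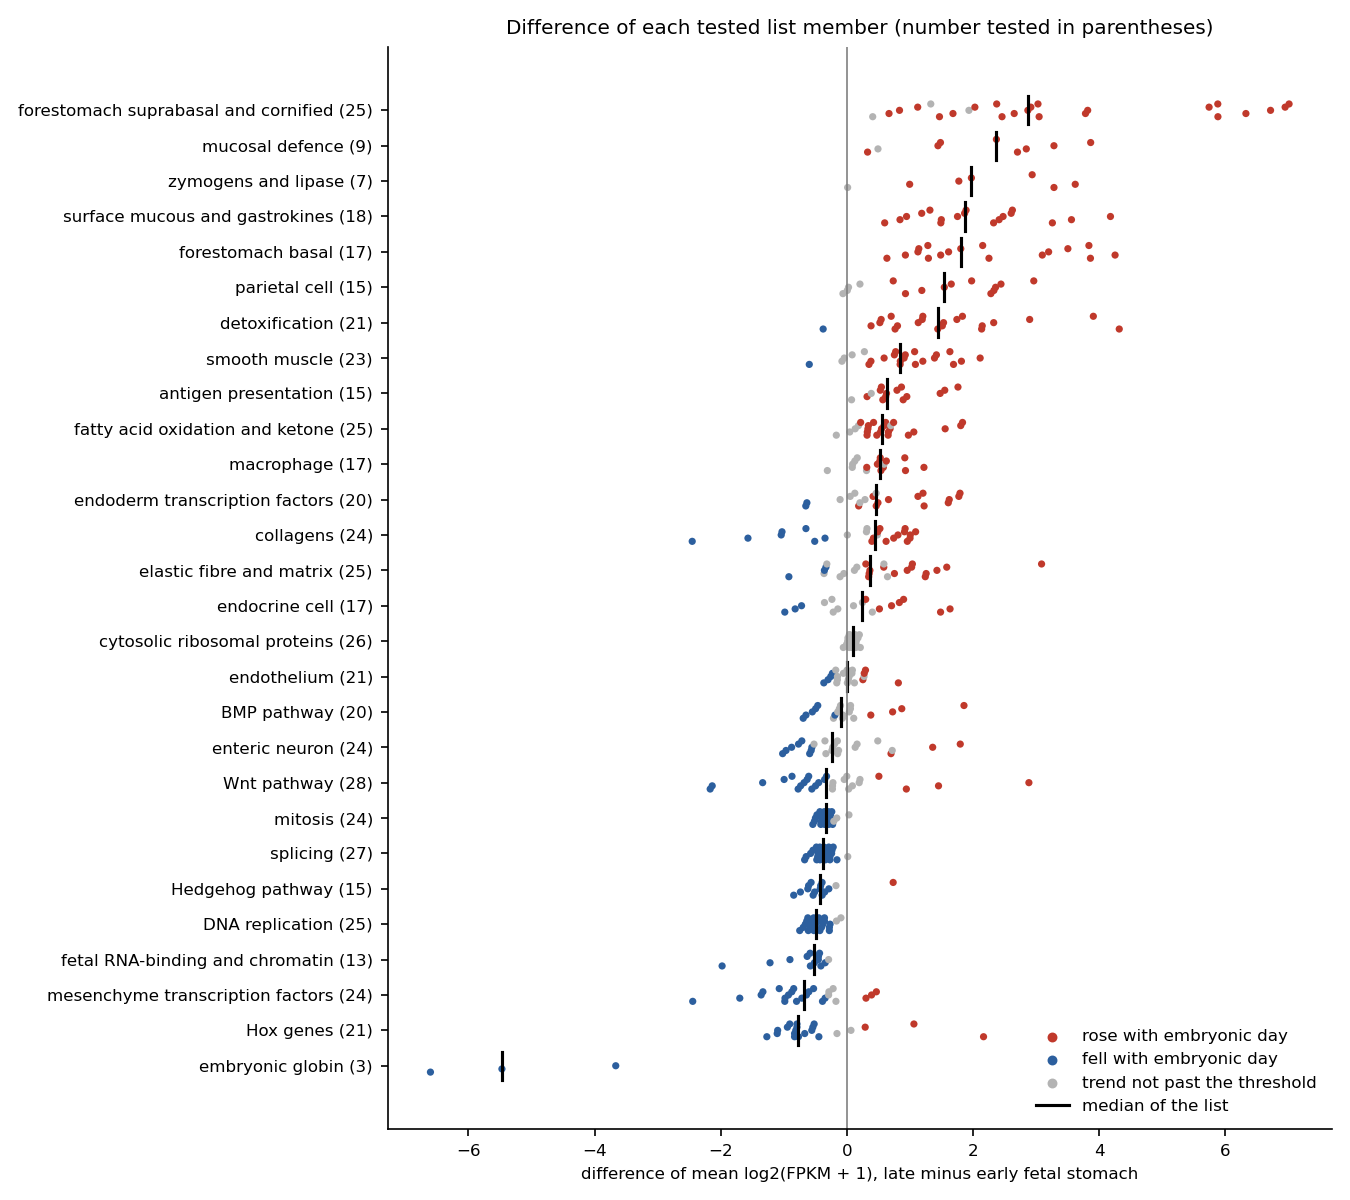
Difference of mean log2(FPKM + 1), late minus early (horizontal axis), of every tested member of 28 gene lists (rows, number tested in parentheses), with members that rose with embryonic day in red, members that fell in blue, members that did not pass in grey and the median of each list as a black bar. Medians ran from 2.87 for the suprabasal and cornified list to -5.47 for the 3 embryonic globins, and the ribosomal protein genes sat close together around 0.10.

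RNA of smooth muscle genes was measured from E12.5 on, and most of the listed genes rose. Acta2, the smooth muscle actin, already had 674, 1004 and 1154 FPKM in the early libraries and 1608, 1562 and 1810 FPKM in the late ones (0.85 ± 0.21). Des, desmin, showed the largest difference of the list, from 20.9, 27.8 and 39.5 to 80.8, 128 and 194 FPKM (2.11 ± 0.36), and Tagln, transgelin, went from 146, 315 and 432 to 794, 915 and 1197 FPKM (1.82 ± 0.40). Of 23 tested members 18 rose, with a median difference of 0.85. Myocd, the coactivator that drives this programme, was the 1 member that fell (-0.60). The genes listed for interstitial cells of Cajal, the pacemaker cells of the muscle layer, mostly fell (6 of 10), among them Kit (-0.52), whose fall was not past the threshold without E13.5, E16.5 or E17.5 (adjusted p up to 0.177), and Pdgfra, which also marks fibroblasts and went from 74.4, 46.8 and 33.1 to 22.9, 19.7 and 14.4 FPKM.

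The RNA of collagen and matrix genes moved in both directions. Among 24 collagen genes 13 rose and 7 fell, and without E12.5 6 rose. The fibrillar chains Col1a1 (0.81) and Col1a2 (0.62), the type VI chains Col6a1, Col6a2 and Col6a3 (0.91 to 0.96) and the basement membrane chain Col4a6 (1.001) rose. The cartilage-type chains fell: Col2a1 had 11.2, 5.70 and 3.14 FPKM and then 0.55, 0.28 and 0.05 FPKM (-2.45 ± 0.39), and Col9a1 (-1.03) and Col11a1 (-0.65) fell with it, as did Col26a1 (-1.57). Of 25 genes of elastic fibres and matrix 14 rose, 7 of them also without E12.5, led by Mfap5, a microfibril protein, with 2.47, 4.79 and 4.26 FPKM and then 17.3, 49.7 and 68.8 FPKM (3.09 ± 0.51), and by Eln, elastin, from 30.6 to 181 FPKM (1.58 ± 0.34). With the fixed sum, 10 collagens and 10 matrix genes rose. The rises of Col1a1 and Col1a2 were not past the threshold without E12.5 (adjusted p 0.0527 and 0.052) or under quantile normalization, nor was that of Col6a1 without E12.5 or E16.5 (adjusted p up to 0.0802).

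Of 15 tested genes of the Hedgehog pathway 13 fell, 1 rose and 1 did not pass. Without E17.5 6 fell, where 3082 of 15587 symbols fell. The ligand Ihh rose, with 22.7, 32.7 and 33.0 FPKM and then 32.2, 60.5 and 60.2 FPKM (0.73 ± 0.28), although E15.5 lay among the early values. Shh, the other epithelial ligand, fell from 25.8, 30.1 and 26.4 to 19.2, 19.5 and 14.6 FPKM (-0.61 ± 0.14), and this call was lost without E17.5 (adjusted p 0.0811). The receptor Ptch1 (-0.51), the transducer Smo (-0.57) and the effectors Gli1 (-0.42), Gli2 (-0.84) and Gli3 (-0.74) fell, Gli1 not without E17.5 (adjusted p 0.126). Ptch1 and Gli1 are also targets of the pathway.

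Wnt ligands went in both directions. Wnt4 had 3.33, 5.23 and 11.1 FPKM and then 23.5, 57.2 and 91.0 FPKM (2.88 ± 0.57), and Wnt7b, an epithelial ligand, had 0.49, 0.75 and 0.53 FPKM and then 1.27, 3.13 and 7.70 FPKM (1.45 ± 0.46). Wnt2b (-0.99), Wnt5a (-0.63) and Wnt5b (-0.87), known from gut mesenchyme, fell. Among the secreted antagonists, Sfrp5 fell from 8.996, 7.24 and 4.03 to 1.91, 0.21 and 0.39 FPKM (-2.14 ± 0.40), Sfrp1 fell (-0.77), and Notum went from 10.4, 14.7 and 15.0 to 5.10, 1.51 and 1.06 FPKM (-2.17 ± 0.41), with an adjusted p of 0.065 when E17.5 was left out. Dkk3 rose (0.94). The target gene Axin2 (-0.32) and the effectors Lef1 (-0.45) and Tcf7 (-0.56) fell, while Lgr5, a receptor for R-spondins, rose (0.51). These calls were not past the threshold for Axin2 under median-ratio scaling or without E12.5, E13.5 or E16.5 (adjusted p up to 0.0833), for Lgr5 without E12.5 (adjusted p 0.0713) and for Wnt5a without E17.5 (adjusted p 0.0586). Of 28 tested members 4 rose and 15 fell.

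BMP genes were mixed, with 4 of 20 rising, 6 falling (3 without E17.5) and a median difference of -0.09. As a list they were thus near all tested symbols, of which 20.3% rose and 30.9% fell with a median of -0.08. The ligand Bmp2 had 0.89, 1.88 and 2.48 FPKM and then 5.40, 10.9 and 10.8 FPKM (1.86 ± 0.32), whereas the ligands Bmp4 (0.11), Bmp5 (0.06) and Bmp7 (-0.12) did not pass. The inhibitor Fst (-0.69) fell, though not without E17.5 (adjusted p 0.0594). Of the FGF genes, the mesenchymal ligand Fgf10 fell from 10.9, 8.27 and 6.597 to 4.79, 2.85 and 1.77 FPKM (-1.25 ± 0.30), together with the responsive factors Etv4 (-0.85) and Etv5 (-0.28), the latter not under median-ratio scaling or without E13.5 or E17.5 (adjusted p up to 0.111). The ligand Fgf7 (0.87) and the receptor Fgfr3 (1.07) rose, and 7 of 16 members fell in all.

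In the Notch list 8 of 18 fell, 5 of them also without E17.5, and 3 rose. The ligands moved apart: Jag1 (-0.66) and Dll1 (-0.63) fell, and Jag2, which is known from basal squamous cells, rose from 6.68, 9.23 and 12.8 to 12.97, 16.7 and 16.8 FPKM (0.68 ± 0.23). The target genes were also divided, with Hey1 (-0.86) falling and Nrarp (0.74) rising, and Hes1 (0.22) not past the threshold. Retinoic acid genes fell in 8 of 15 cases, and in 5 without E17.5. Crabp1, a retinoic acid binding protein, had 136, 117 and 73.7 FPKM and then 51.4, 16.02 and 6.92 FPKM (-2.47 ± 0.67), and Stra6, the retinol importer, had 10.98, 4.64 and 3.05 FPKM and then 1.57, 0.23 and 0.15 FPKM (-2.08 ± 0.48). The synthetic enzyme of the mesenchyme, Aldh1a2, fell (-0.41) and the receptor gene Rarb fell (-1.19), while Aldh1a1, another retinaldehyde dehydrogenase, rose from 8.24, 11 and 13.8 to 20.3, 31.5 and 36.8 FPKM (1.33 ± 0.26).

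In the enteric nervous system, Ret, the receptor of the neurotrophic factor GDNF (-0.59), fell, as did the glial and crest factors Sox10 (-0.73) and Foxd3 (-0.75), Sox10 not without E13.5 or E17.5 (adjusted p up to 0.106). Tac1, the precursor of substance P, rose from 0.72, 2.82 and 5.29 to 11.2, 12.1 and 9.86 FPKM (1.80 ± 0.45), and Vip, the vasoactive intestinal peptide, from 1.51, 2.56 and 5.04 to 9.59, 8.09 and 8.50 FPKM (1.36 ± 0.31). The sum was 3 of 24 neuronal genes rising and 8 falling, the latter near the 30.9% of all tested symbols. Without E12.5, 11 neuronal genes fell, where 3780 of 15675 symbols fell. Pan-neuronal Elavl4 (-0.15) and Uchl1 (-0.24) did not pass. Gfra1, the GDNF coreceptor, fell from 57.2, 52.3 and 43.6 to 28.9, 12.9 and 5.38 FPKM (-1.90 ± 0.53).

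Endothelial genes changed little, with 4 of 21 rising, 4 falling and a median difference of 0.01 (2 rising without E12.5, and 2 falling without E13.5, E14.5, E16.5 or E17.5), and their summed level lay between 310 and 341 FPKM in all 6 libraries. Lyve1, a marker of lymphatic endothelium and of some macrophages, rose from 2.22, 3.499 and 4.22 to 5.28, 7.94 and 6.35 FPKM. The mesothelium, the serosal cell layer, gave an uneven record, with 3 of 9 tested genes rising, 3 falling and 3 not passing. Those that rose were Krt19, a general epithelial keratin, Tm4sf5 (0.85) and Msln, mesothelin, which had 2.20, 5.55 and 9.38 FPKM and then 12.3, 24.0 and 27.2 FPKM (1.81 ± 0.48). The summed level of the list went from 226 to 1042 FPKM, with Krt19 at 112 and 957 FPKM. Wt1 had 19.5, 12.4 and 10.01 FPKM and then 8.49, 4.46 and 0.36 FPKM, and Lrrn4 had 4.95, 6.03 and 6.01 FPKM and then 5.57, 2.80 and 0.28 FPKM, and both were higher again at E18.5 (1.14 and 2.08 FPKM) and D1 (3.63 and 4.36 FPKM). Upk3b dipped in the same library, to 10.9 FPKM at E17.5 against 26.6 FPKM at E16.5 and 23.2 FPKM at E18.5. The fall of Lrrn4 was not past the threshold under median-ratio scaling or without E13.5, E14.5, E16.5 or E17.5 (adjusted p up to 0.245), and Upk3b did not pass. The Wnt agonist Rspo1, which is also expressed by mesothelium, followed the same course and its fall was lost without E17.5 (adjusted p 0.0743), where 1 of the 3 falls of the list was left.

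**Figure D4:**
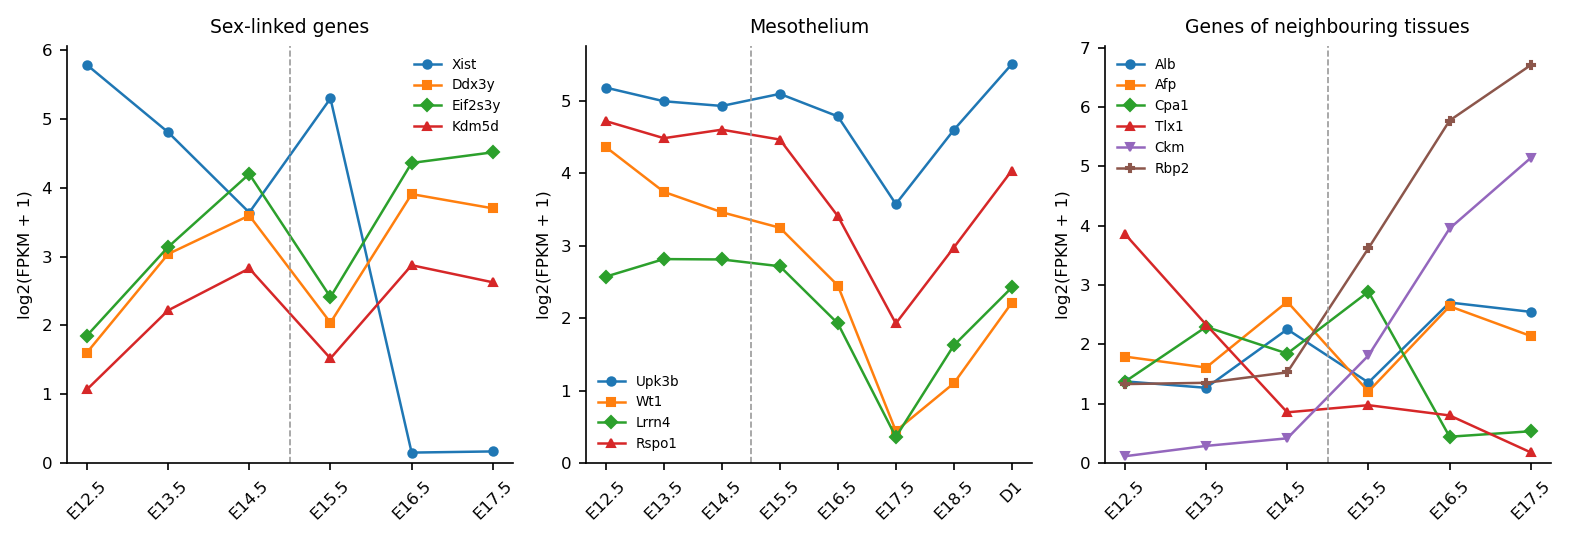
RNA level on the log2(FPKM + 1) scale (vertical axis) by library (horizontal axis) of sex-linked genes, of mesothelial genes with E18.5 and D1 added, and of genes of neighbouring tissues, with 1 point per library. Xist was at 0.11 and 0.12 FPKM at E16.5 and E17.5, the 4 mesothelial genes had their lowest fetal value at E17.5, and Rbp2 and Ckm rose while Tlx1 fell.

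Among blood genes, all 3 tested embryonic globins fell. The embryonic beta-type globin Hbb-y had 3298, 1360 and 583 FPKM in the early and 115, 6.44 and 2.34 FPKM in the late libraries, a difference of -6.601 ± 1.37, and the embryonic alpha-type globin Hba-x went from 420, 198 and 97.8 to 25.8, 2.06 and 0.16 FPKM (-5.47 ± 1.18). Hbb-bh1 had 55.3, 12.2 and 2.84 FPKM and was listed at 0 at E15.5 and E17.5. The adult alpha globin Hba-a1 did not pass, with 2398, 2785 and 3080 FPKM and then 3576, 3065 and 3228 FPKM. The adult beta globin Hbb-bs rose, but not without E12.5, E13.5, E14.5 or E16.5 (adjusted p up to 0.255 in the trend test). Of 10 tested adult globin and erythroid genes 3 rose, 1 fell and 6 did not pass. Adult globins have near-identical copies between which fragments can be split, so their single values are uncertain.

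Other symbols with the largest falls came from several programmes. Nepn, nephrocan, a marker of early foregut and midgut endoderm, went from 40.6, 42.0 and 32.5 to 8.12, 2.94 and 1.17 FPKM (-3.20 ± 0.50). Brinp1, a gene of developing neurons, fell from 16.4, 13.3 and 9.96 to 5.5, 2.26 and 1.44 FPKM (-1.91 ± 0.38). Cldn6, a claudin of embryonic epithelia, stayed at 98.0, 115 and 113 FPKM up to E14.5 and then stood at 70.8, 35.7 and 14.51 FPKM (-1.67), a fall that was not past the threshold without E17.5 (adjusted p 0.0613). In the epithelium as a whole Krt8 and Krt19, keratins of simple epithelia, rose by 1.53 and 1.88, and Cdh1, E-cadherin, by 1.29.

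In the antigen presentation list 13 of 15 rose, with a median difference of 0.63. The class I gene H2-K1 had 6.92, 10.01 and 16.3 FPKM and then 24.9, 43.3 and 50.2 FPKM (1.76 ± 0.36), and the class II gene H2-Ab1 had 0.41, 2.42 and 4.02 FPKM and then 4.39, 7.04 and 11.1 FPKM (1.48 ± 0.52). Of 17 macrophage genes 10 rose, with Cd14 (1.22), F13a1 (0.93) and the complement gene C1qa (0.63) among them, and 7 did not pass, such as Csf1r (0.16) and Cx3cr1 (0.09). Of 10 tested genes of other leukocytes 3 rose, 1 fell and 6 did not pass, and 1 of the 3 rises was left without E12.5, E16.5 or E17.5. Genes of mucosal defence had a median of 2.37, and 8 of 9 rose, 3 of them also without E17.5. Bpifb1, a secreted mucosal protein, went from 21.1, 37.5 and 66.6 to 175, 755 and 1335 FPKM (3.86 ± 0.79), and Slpi, a protease inhibitor, was between 1.45 and 1.75 FPKM up to E15.5, 15.3 FPKM at E16.5 and 376 FPKM at E17.5, with its trend lost without E17.5 (adjusted p 0.122) or without E13.5 (adjusted p 0.0656).

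Proliferation genes fell by small amounts. All 6 replicative helicase genes fell, from Mcm2, with 82.0, 75.9 and 66.5 FPKM and then 55.2, 42.1 and 36.5 FPKM (-0.75 ± 0.17), to Mcm6 (-0.46), and 23 of 25 DNA replication genes fell with a median difference of -0.50. Of 24 mitotic genes 21 fell, with a median of -0.33, and 15 fell under median-ratio scaling and 11 without E17.5. The largest change lay between E15.5 and E16.5 in 18 of the 24, against 32.2% of all falling symbols. Kif20a, a kinesin of cytokinesis, had 40.4, 36.0 and 36.7 FPKM and then 32.3, 25.3 and 20.5 FPKM (-0.54 ± 0.17). Mki67, the usual marker of cycling cells, did not pass, with 41.1, 37.3 and 40.7 FPKM and then 37.5, 32.6 and 32.9 FPKM. Of the genes whose promoters are printed next, Ube2c (-0.34), Cdc20 (-0.32) and Cdk1 (-0.24) fell, but Cdc20 and Cdk1 not under median-ratio scaling. Cdc20 was not past the threshold without E13.5 (adjusted p 0.0566), nor Cdk1 without any of E12.5, E13.5, E14.5, E16.5 and E17.5 (adjusted p up to 0.229).

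Promoters of the mitotic genes are shown for the CCAAT box and the TTTGAA element, which are known from genes of the G2 and M phases. CCAAT stood on either strand within 250 bases before the start in 18 of 20 mitotic genes with an entry (90.0%), against 36.0% of 10791 symbols, and TTTGAA in 8 of 20 (40.0%), against 10.3%. In the DNA replication list CCAAT was frequent too, in 15 of 21 genes with an entry (71.4%), and TTTGAA stood in 3 of 21 (14.3%). The 120 bases before the start are printed on the strand of the gene, with both elements in capitals, read on either strand (ATTGG is CCAAT on the other strand, as TTCAAA is TTTGAA). The positions are chr10:69352913-69353032 on the minus strand for Cdk1, chr4:118437344-118437463 on the minus strand for Cdc20 and chr2:164769809-164769928 on the plus strand for Ube2c, the kinase, activator and ubiquitin carrier of mitosis.
Cdk1: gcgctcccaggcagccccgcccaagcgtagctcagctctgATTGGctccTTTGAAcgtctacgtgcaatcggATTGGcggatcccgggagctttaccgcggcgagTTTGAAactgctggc
Cdc20: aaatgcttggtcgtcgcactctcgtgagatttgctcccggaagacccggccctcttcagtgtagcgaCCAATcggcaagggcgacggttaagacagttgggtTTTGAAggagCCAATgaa
Ube2c: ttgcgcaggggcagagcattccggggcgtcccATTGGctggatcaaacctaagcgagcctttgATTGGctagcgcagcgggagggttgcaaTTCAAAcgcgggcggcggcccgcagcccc
In all 3 both elements are present, and no match overlaps another. Over all symbols CCAAT stood in 38.1% of the falling and 34.4% of the rising ones.

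The fetal programme of RNA-binding and chromatin genes fell in 12 of 13 cases. Hmga2, the chromatin protein of fetal growth, had 161, 80.8 and 57.1 FPKM and then 33.5, 21.9 and 14.9 FPKM (-1.98 ± 0.44). Igf2bp1, which binds growth factor mRNAs, fell from 21.8, 15.2 and 12.1 to 8.02, 5.81 and 5.25 FPKM (-1.22 ± 0.24), and the DNA methyltransferase gene Dnmt3a fell by 0.90. Of 15 imprinted growth genes 8 fell, with Peg10 (-1.31), Grb10 (-1.10) and Mest (-1.04) foremost, while Igf2 (-0.29), H19 (0.24) and Dlk1 (0.02) did not pass. Splicing factor genes fell in 26 of 27 cases by a median of 0.38 on the log2 scale, and 20 of these also under median-ratio scaling. Ribosomal protein genes were steadier: 0 of 26 passed in either direction, their median was 0.10, and its sign turned under quantile normalization (-0.08) and the fixed sum (-0.03), whereas 15 passed as rising under median-ratio scaling.

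Of 25 genes of fatty acid oxidation and ketone synthesis 20 rose and 0 fell, with a median of 0.55. Nuclear genes of the respiratory chain rose in 17 of 27 cases, but in 7 under quantile normalization, in 11 without E12.5 and in 7 without E17.5. Of 13 mitochondrially encoded genes of the chain 5 rose, 2 of them under quantile normalization or the fixed sum, and the count was 9 without E12.5, 2 without E13.5, 3 without E16.5 and 0 without E17.5. Detoxification genes rose in 20 of 21 cases, with a median of 1.44. Cyp2f2, a cytochrome P450, had 0.18, 1.25 and 3.92 FPKM and then 27.5, 53.8 and 65.5 FPKM (4.32 ± 0.57), and Gsta1, a glutathione transferase, 2.51, 3.46 and 6.06 FPKM and then 15.6, 125 and 177 FPKM (3.91 ± 0.89). Of 18 glucocorticoid-responsive genes 9 rose, 1 fell and 8 did not pass, with a median of 0.55. The metallothioneins Mt1 (2.04) and Mt2 (2.11), which also respond to metals, and Klf9 (1.12) and Per1 (0.63) were among those that rose, and Fkbp5 (-0.03) and Tsc22d3 (0.24) among those that did not pass.

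Genes of neighbouring tissues were measured as well. The liver genes Alb and Afp lay between 1.41 and 5.52 FPKM and between 1.31 and 5.58 FPKM and did not pass. Of 11 tested liver genes 4 rose and 3 fell, and their summed level was 62.4 to 99.5 FPKM in the early and 86.4 to 177 FPKM in the late libraries, with Apoa1, which is also made outside the liver, at 14.9 to 98.1 FPKM. The methods of the study name liver as the source of RNA while the labels name stomach. The stomach factors Barx1 and Sox2 stood at no less than 150 and 37.2 FPKM in all 6 libraries.

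Of 10 tested genes of the exocrine pancreas Clps and Cela1 rose and 8 did not pass, Ins2 was at 0 in 4 libraries and at most 0.29 FPKM in the others, and Tlx1, the spleen factor, had 13.53, 4.04 and 0.81 FPKM and then 0.97, 0.74 and 0.13 FPKM and fell. Skeletal muscle genes rose in 5 of 8 cases (3 without E13.5, E16.5 or E17.5), led by Ckm, muscle creatine kinase, from 0.08, 0.22 and 0.33 FPKM to values between 2.51 FPKM at E15.5 and 34.4 FPKM at E17.5, and Myod1, the muscle determination factor, did not exceed 1.02 FPKM. Of 9 tested intestinal genes 5 rose, 2 fell and 2 did not pass. The rises were led by Rbp2, a retinol binding protein, from 1.51, 1.55 and 1.89 to 11.3, 53.7 and 104 FPKM (3.96 ± 0.74). The part of neighbouring tissue in these rises was not tested.

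The libraries also differed in sex composition. Xist, the RNA of the inactive X chromosome, had 54.3, 27.1 and 11.5 FPKM in the early and 38.5, 0.11 and 0.12 FPKM in the late libraries, and Ddx3y, on the Y chromosome, had 2.04, 7.22 and 11.1 FPKM and then 3.12, 14.04 and 12.03 FPKM. Xist and Y-linked RNA were thus both present up to E15.5, and Xist was close to 0 at E16.5 and E17.5. Of 523 tested symbols on the X chromosome 79 rose and 193 fell, where 20.3% of all tested symbols rose and 30.9% fell. Their median difference was -0.12, against -0.08 for all symbols, and of the autosomes only chromosome 8 had a lower median (-0.13). The part of sex in the differences was not tested.

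Most of the differences persisted at E18.5, in a library outside both groups. Of the 3341 symbols that were higher in the late libraries, 90.3% lay above all early values at E18.5, against 30.7% of all tested symbols, and of the 4774 lower ones 97.8% lay below all early values, against 56.0%. At W8 the share was 58.2% for the higher symbols, against 20.8% of all. The squamous genes were among those whose gain was not kept to W8. Krt13 had 3510 FPKM at E18.5, 4703 FPKM at D1, 680 to 730 FPKM from W1 to W3 and 273 FPKM at W6. At W8 it had 5.97 FPKM, below its value at E12.5, and Krt5 (1.26 FPKM) and Trp63 (0.05 FPKM) were low there too. The collagen median on the log2 scale was likewise lower at W6 (2.70) and W8 (2.59) than at E12.5 (4.88). The median of the suprabasal list on the log2 scale was 5.09 at W3, 3.72 at W6 and 0.37 at W8, and that of the basal list 3.88, 2.61 and 0.81, so that the lowest values came from the W8 library alone, in which surface mucous genes stood at 8.71. Whether the W8 library held forestomach was not tested.

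**Figure D5:**
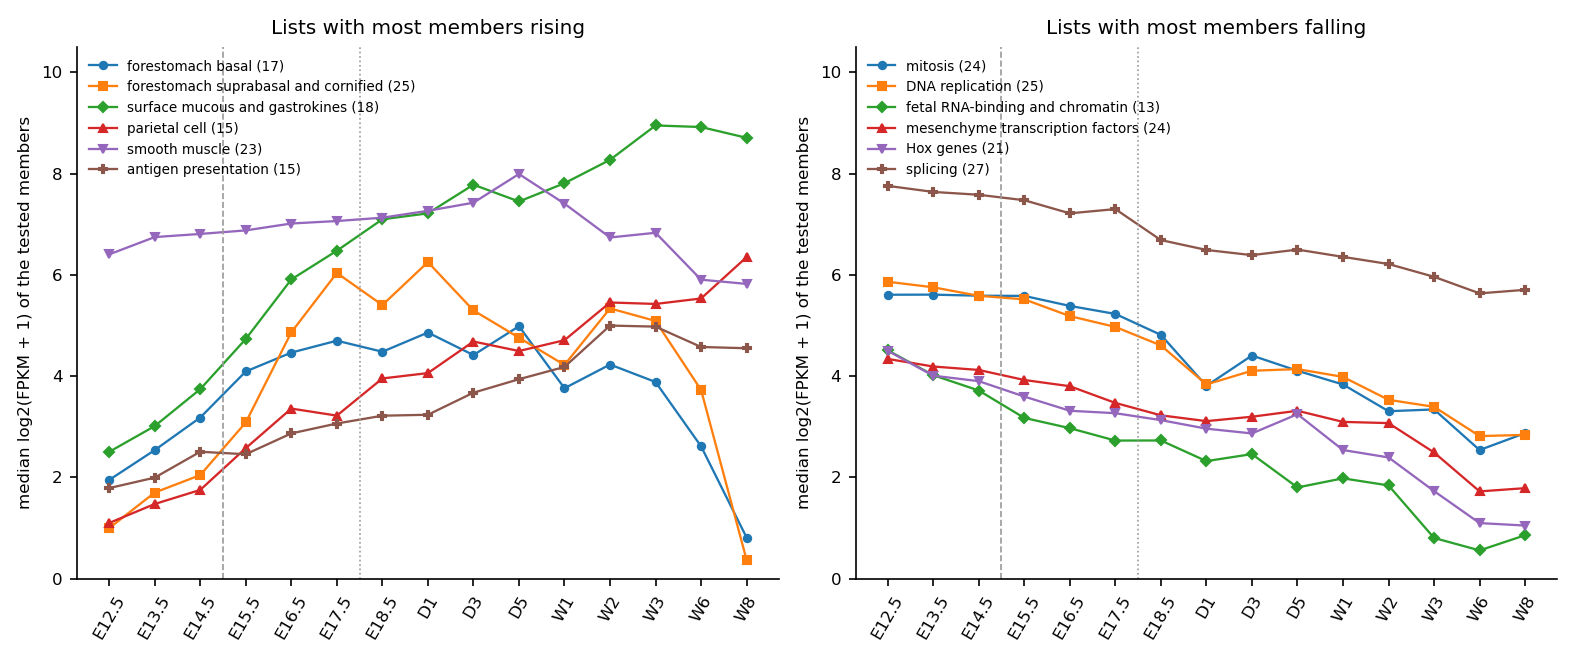
Median log2(FPKM + 1) of the tested members (vertical axis) of 6 lists with mostly rising members (left) and 6 with mostly falling members (right) in all 15 libraries (horizontal axis), with a dashed line between the early and late fetal groups and a dotted line after E17.5. The surface mucous and parietal medians were higher at W8 than at E17.5, the squamous medians were 0.81 and 0.37 at W8, and all 6 medians on the right were lower at W8 than at E17.5.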

How the data were processed

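RNA-Seq had been done on whole stomachs of C57BL/6 mice, with 1 library per timepoint. The authors deposited FPKM per gene for each library, with confidence bounds, in the layout of a Cufflinks gene-tracking file. The submitters' processing notes name Bowtie 0.12.2, FastQC and build GRCm38.p2, whereas the methods of the study describe another aligner and assembler. FPKM entries of a symbol were summed (1565 of 44788 symbols had more than 1 entry), symbols reaching 1 FPKM in any of the 6 libraries were kept, and log2(FPKM + 1) was analysed with limma 3.58.1 in R 4.3.3, first as late minus early and then, as an alternative, as a linear trend over embryonic day. P-values were adjusted by Benjamini-Hochberg over all 15832 symbols. FPKM hold no counts, so no count model was fitted, and no source says that libraries came from separate litters. P-values of the group comparison set the difference against the spread between libraries within a group. Those of the trend set the slope against the departure of single libraries from a straight line over embryonic day. The group comparison was tried on simulated data that held no trend over embryonic day. Other scalings, pseudocounts, filters and leaving out each library were tried. The trend tests under other scalings, pseudocount, filter and libraries, and the fit without E14.5 and E15.5, were chosen after seeing the data. The rule for named genes asked for the 12 largest differences each way among genes past the threshold of the group comparison. As it gave none, genes that passed the trend without overlap took their place, chosen after their values were seen, beside members of 53 gene lists (976 symbols, 863 tested). The comparison and the lists were chosen with earlier results of these data known. Some list members are counted but not reported here by name.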

Additional observations from a re-analysis of the deposited data

How the results depend on the processing

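In the group comparison, leaving out 1 library at a time gave 0 to 2540 higher and 0 to 3538 lower genes, both highest without E15.5. Without both E14.5 and E15.5 it gave 2366 higher and 2602 lower, with a pseudocount of 0.1 it gave 1 higher and 1 lower, and with a variance trend and robust moderation 1222 higher and 1164 lower. The linear trend gave 3208 rising and 4898 falling genes, 4087 and 3590 with median-ratio scaling, 2969 and 5321 with quantile normalization, 2516 and 6361 with the fixed sum, 3108 and 4764 with a pseudocount of 0.1, 3172 and 4965 without the filter, and 2559 to 3126 and 3082 to 4775 with 1 library left out. Of 591 called list members, 412 kept the call in every such fit in which they were tested. Of 2717 alternative differences of 151 named genes, 16 turned in sign, and of 901 list values 2 did. Calr turned to -0.2754 with quantile normalization and -0.079 with the fixed sum, and ranged from -0.0649 (without E17.5) to 0.1206 with 1 library left out. With 1 library left out, Fabp7 ranged from -0.3171 to 0.0753, Fgfr2 from -0.0982 to 0.0536 and Jun from -0.2711 to 0.2705, each turning without E14.5 and without E17.5. Fgfr2 turned to 0.0662 with median-ratio scaling, 0.0258 without both E14.5 and E15.5 and 0.0011 per day in the trend, and Jun to 0.0151 with median-ratio scaling. Eno1 turned to 0.0024 with median-ratio scaling, and ATP8 to -0.0 and Rplp1 to -0.0114 with quantile normalization. The median of the ribosomal proteins turned to -0.0774 with quantile normalization and -0.0261 with the fixed sum. The cause of these turns was not tested. No paired analysis was possible because the replicate numbers only name timepoints.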

Other observations

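Genes of hypoxia and glycolysis were not described above: 9 of 14 rose and 0 fell, but 5 rose and 1 fell under quantile normalization, and 6 rose without E12.5. Ndrg1, a gene induced by low oxygen and by differentiation, showed a difference of 2.58. Of 12 immediate early genes, which respond to stress and to dissection, 5 rose and 0 fell, and 10 rose without E17.5. In the tuft cell list 4 of 6 genes rose and 1 fell, with a median difference of 0.41, and 1 rose without E17.5. Of 23 genes of folding and secretion in the endoplasmic reticulum 9 rose and 0 fell, 15 rose under median-ratio scaling, and 6 rose and 2 fell under the fixed sum. Genes of cholesterol and fatty acid synthesis rose in 15 of 23 cases and fell in 2 (0 without E12.5, E13.5, E15.5, E16.5 or E17.5), and 17 rose and 0 fell under median-ratio scaling.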
